A study of Mus musculus with 2 samples.

Results

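The laminins, the proteins that link and complete the basement membrane, and the integrin receptors were followed in whole lungs of mouse embryos with and without TAZ. The members were 36 genes: 10 laminin chains, 9 linker genes with dystroglycan, and 17 integrin subunits. They were found as the probe sets that the platform annotation assigns to one of these genes alone. This gave 84 of 45101 probe sets, for 35 of the 36 genes, Itga11 having none in the annotation used here. The rule itself uses no measured value, but the list was drawn up with earlier results of these data known.

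Laminins are heterotrimers of an alpha, a beta and a gamma chain that polymerise into the sheet beneath epithelia and around vessels and muscle. Nidogens and perlecan tie this sheet to the collagen IV network, agrin and dystroglycan connect it to cell surfaces, and the Fras/Frem proteins form a complex that holds embryonic epithelia to the mesenchyme below. Integrins are alpha-beta heterodimers that bind laminins, collagens, proteins with an RGD motif or other ligands, and most of them couple these to actin. In the developing lung the basement membrane surrounds the branching airway epithelium. TAZ, the product of Wwtr1, is a transcriptional coactivator of the Hippo pathway that acts through TEAD transcription factors and responds to matrix stiffness and cell adhesion.

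The data were 2 Affymetrix Mouse Genome 430 2.0 arrays of whole lung at E15.5, a day of embryonic development,, the first from wild type and the second from TAZ-deficient embryos, described as littermates. Each array was hybridised with a pool of 4 total RNA samples, so each group is 1 value per probe set, with no spread between embryos, no test and no p-value. The sources used here do not give the strain, the sex of the embryos or the way the deficiency was made. In whole lung, fewer cells of a type and less RNA per cell cannot be told apart. Wwtr1 followed the labels at its 3 probe sets, whose signals were 791.2, 222.9 and 176.9 with TAZ and 11.3, 6.4 and 3.9 without it.

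Signals are linear array units. Values under 15.2, the median signal without control probe sets, were raised to this floor. The log2 ratio then compares the TAZ-deficient with the wild type signal, positive values meaning more signal without TAZ. Each gene stands for its brightest probe set and counts as measured if either array put that above the floor, as for 32 members and 12032 genes in all. Folds with one signal at or below the floor are lower bounds, are written "at least" and were counted at that bound, over the members and over all genes alike. The remaining 3 members with a probe set were at or below the floor on both arrays. They were Itga7, a laminin receptor subunit of muscle (9.8 in wild type, 9.3 in TAZ-deficient lung), Itgb3, the beta subunit of platelet and vascular receptors (5.5 and 3.6), and Itgb4, the hemidesmosome subunit (3.2 and 2.0).

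Promoters of 4 genes are shown first because TAZ reaches DNA through TEAD factors, whose core motif is GGAATG. They belong to Frem2 and Lamb1, with higher signal in TAZ-deficient lung, to Hspg2, with lower signal, and to Nid1, with almost equal signals. Each is the 250 bases before a RefSeq transcript start (GRCm38.p6), written 5′ to 3′ on the gene's strand, with the motif or its reverse complement CATTCC in capitals.
Frem2, chr3:53657356-53657605, minus strand: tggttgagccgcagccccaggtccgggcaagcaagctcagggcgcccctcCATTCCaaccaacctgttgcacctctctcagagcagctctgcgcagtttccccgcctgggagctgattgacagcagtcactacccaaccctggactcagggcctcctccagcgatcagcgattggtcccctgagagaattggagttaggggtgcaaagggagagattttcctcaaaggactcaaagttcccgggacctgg
Lamb1, chr12:31265043-31265292, plus strand: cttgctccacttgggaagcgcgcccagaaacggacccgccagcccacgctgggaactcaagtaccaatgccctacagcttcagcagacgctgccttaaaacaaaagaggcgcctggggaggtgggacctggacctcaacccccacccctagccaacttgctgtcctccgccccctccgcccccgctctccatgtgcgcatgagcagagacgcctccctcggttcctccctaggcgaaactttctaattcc
Hspg2, chr4:137468553-137468802, plus strand: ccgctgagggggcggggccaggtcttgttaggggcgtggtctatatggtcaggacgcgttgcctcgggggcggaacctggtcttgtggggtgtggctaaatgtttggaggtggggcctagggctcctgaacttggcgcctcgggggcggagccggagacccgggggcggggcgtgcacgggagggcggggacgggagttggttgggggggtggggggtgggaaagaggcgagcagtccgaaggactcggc
Nid1, chr13:13437352-13437601, plus strand: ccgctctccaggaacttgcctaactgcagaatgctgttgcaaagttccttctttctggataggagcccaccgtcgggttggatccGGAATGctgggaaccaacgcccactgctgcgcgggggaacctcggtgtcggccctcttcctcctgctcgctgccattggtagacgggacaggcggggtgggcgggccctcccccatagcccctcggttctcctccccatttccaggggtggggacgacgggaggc

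In these windows the motif began 200 bases before the start in Frem2 and 165 bases before it in Nid1. The windows of Lamb1 and Hspg2 held no match on either strand. Of the 25 member genes with an entry in the promoter table, 4 (16%) held the motif in at least 1 window, against 3880 of 27025 genes (14.4%) in the whole table. The other members with a match were Lamb3 and Itgb1. The log2 ratios of the 4 genes were 0.60 for Frem2, 0.21 for Lamb3, 0.0023 for Nid1 and -0.097 for Itgb1. A match is a description of these letters and not a binding site.

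Most members read nearly the same in both pools. Of the 32 measured members, 24 were within 1.2-fold (75%), compared with 81.4% of all measured genes. One of these, Lamc3, was placed there only by a lower bound and may differ by more. None was at least 1.5-fold lower (1.46% of all measured genes were), and 2 (6.25%) were at least 1.5-fold higher (1.26% of all). At 1.2-fold, 3 members (9.38%) were lower against 10.6% of all genes, and 5 (15.6%) were higher against 8.01%. The share of lower calls was thus close to that of all genes. Loess scaling turned the balance over all genes to 9.62% higher and 8.35% lower at 1.2-fold, and to 1.6% and 1.08% at 1.5-fold, and left 5 members higher and 2 lower at 1.2-fold. The median log2 ratio was 0.06 over the members and -0.01 over all measured genes.

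**Figure D1:**
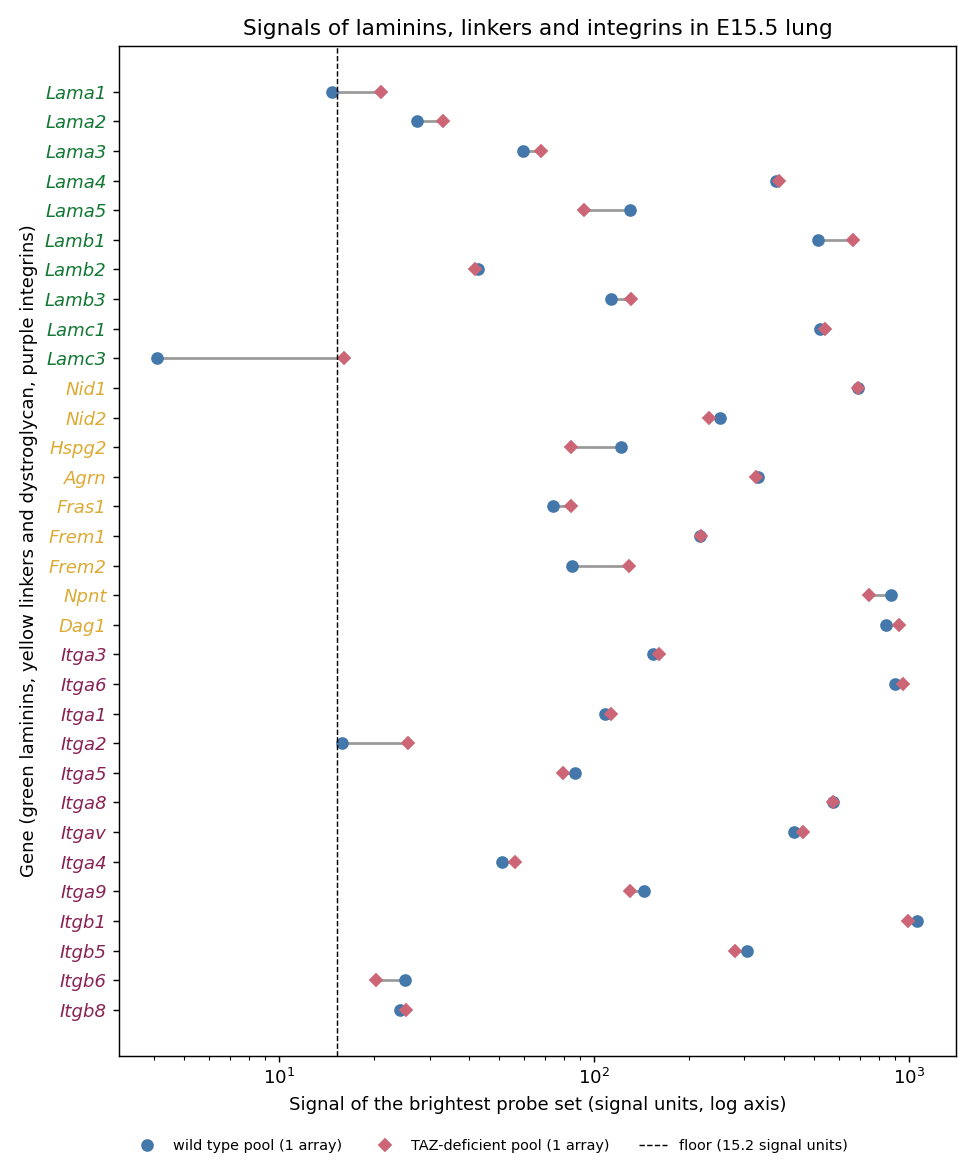
Signal of the brightest probe set of each of the 32 measured members in the wild type pool (circles) and the TAZ-deficient pool (diamonds), on a log axis in signal units, 1 array each; the dashed line is the floor of 15.2. For most genes the symbols nearly coincide, and Lama5, Lamb1, Hspg2, Frem2 and Itga2 show visible gaps, while Lama1 and Lamc3 lie at or below the floor in wild type.

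All 10 laminin chains were measured. Of these, 3 (Lamb1, Lama2 and, by a bound, Lama1) were at least 1.2-fold higher in TAZ-deficient lung, where 8.01% of all measured genes were. Lama5 alone was at least 1.2-fold lower, where 10.6% of all were. Ratios were above 0 for 8 chains, for 9 after loess scaling and for 7 with the median over probe sets. The 8 include Lama1 and Lamc3, which passed the floor in the TAZ-deficient pool only, so their ratios could only be above 0. Both enter the median below at their bounds. Over all measured genes, 5627 of 12032 had ratios above 0. The median log2 ratio of the 10 chains was 0.13, and it was 0.063 over 8 chains without shared probe sets and 0.051 over the 5 chains above a floor of 106.3.

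Lamb1, the beta chain of most embryonic laminins, read 515.1 in the wild type pool and 665.3 in the TAZ-deficient one at its brightest probe set, 1424114_s_at, a 1.29-fold difference. Its other 2 probe sets above the floor read 166.0 and 202.2 (1.22-fold higher) and 172.9 and 181.6 (1.05-fold higher). All 3 were higher in the TAZ-deficient pool, with log2 ratios from 0.07 to 0.37. Lamc1, the gamma chain that joins Lamb1 in the common laminins, was almost equal in the pools at both of its probe sets. It read 520.9 and 539.7 at the brighter and 70.0 and 70.2 at the dimmer.

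The alpha chains, which carry the receptor-binding domains, differed in direction. Lama5, the main alpha chain beneath lung epithelium, read 130.3 in the wild type pool and 92.9 in the TAZ-deficient one at 1427009_at (1.40-fold lower). Its second probe set, shared between transcripts by its suffix, read 55.7 and 57.6, so that the lower signal was seen at only one of these probe sets. Lama4, the alpha chain of vessel and mesenchymal laminins, read 379.1 and 386.0 at one probe set and 101.3 and 99.2 at the other, on either side of equality.

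The other alpha chains were higher in the TAZ-deficient pool. Lama1, an alpha chain of early embryonic epithelia, read 14.7 and 21.0 (at least 1.38-fold higher), its wild type signal being below the floor. Lama2, the alpha chain of muscle basement membranes, read 27.3 and 33.1 (1.21-fold higher). Lama3, an alpha chain of epithelial anchoring laminins, read 59.5 and 67.9 (1.14-fold higher). Each of the 3 rested on 1 probe set above the floor.

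Lamb3 and Lamb2 were within 1.2-fold. Lamb3, the beta chain that pairs with Lama3, read 112.9 and 130.6 (1.16-fold higher). Lamb2, a beta chain of mature basement membranes, read 42.8 and 41.8. Lamc3 read 4.1 and 16 at the probe set used, just above the floor in the TAZ-deficient pool only. Its other probe set read 10.7 and 5.7, both below the floor and in the opposite direction, so no direction is drawn for Lamc3.

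Among the 9 linker genes, Frem2 was higher and Hspg2 lower in TAZ-deficient lung. The other 7 were within 1.2-fold (77.8%, against 81.4% of all measured genes). Frem2, a component of the Fras/Frem complex, read 85.1 in the wild type pool and 128.9 in the TAZ-deficient one at its single probe set, 1457038_at (1.51-fold higher). Hspg2, which encodes the proteoglycan perlecan, read 121.8 and 84.2 at 1418669_at (1.45-fold lower). Its second probe set, shared between transcripts by its suffix, read 30.9 and 29.8, a far smaller difference in the same direction. With the floor raised to the 75th percentile of signal, 106.3, the log2 ratio of Frem2 went from 0.60 to 0.28 and that of Hspg2 from -0.53 to -0.20. That floor lies above the wild type signal of Frem2 and the TAZ-deficient signal of Hspg2. The smaller values are therefore lower bounds in size, and do not bear on how large the differences are.

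The partners of Frem2 in the complex were measured too. Fras1, its founding member, read 74.0 and 84.2 (1.14-fold higher), and its dimmer probe set read 12.7 and 21.4 (at least 1.41-fold higher). Frem1, the third component, read 217.4 and 219.0. All 3 genes had ratios above 0, also after quantile, loess and median scaling, but Frem1 was within 1.01-fold.

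The nidogens and agrin were close to equality. Nid1 read 688.7 and 689.8 at its brightest probe set and 183.7 and 165.0 at the next. Nid2 read 250.5 and 231.9 (1.08-fold lower). Agrn, the heparan sulphate proteoglycan agrin, read 331.0 and 326.7. The largest difference among the probe sets of these 3 genes above the floor was the 1.11-fold lower signal at the second of Nid1.

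Npnt encodes nephronectin, an RGD-containing ligand of the integrin formed by Itga8 and Itgb1. Its 5 probe sets were all above the floor and disagreed. The brightest read 877.4 in the wild type pool and 747.8 in the TAZ-deficient one (1.17-fold lower), and the next read 435.7 and 448.1. The other 3 read 104.2 and 103.0, 57.7 and 46.4 (1.24-fold lower), and 26.0 and 13.5 (at least 1.71-fold lower). Ratios were below 0 at 4 of the 5, with log2 values from -0.77 to 0.04, and the last was the only member probe set at least 1.5-fold lower. By their suffixes those 3 probe sets match several transcripts of the gene.

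Dag1, which encodes dystroglycan, a laminin receptor that is not an integrin, gave ratios of both signs at its 4 probe sets. The brightest read 847.0 and 929.7 (1.10-fold higher), and another read 216.5 and 225.2. A probe set with the suffix of cross-hybridising sets read 316.9 and 223.6 (1.42-fold lower), and a second of that kind read 191.5 and 189.9.

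Of the 17 integrin genes 13 were measured, and 11 of these were within 1.2-fold (84.6%), close to the 81.4% of all measured genes. The exceptions were Itga2, higher in TAZ-deficient lung, and Itgb6, lower. The median log2 ratio was 0.07 over the 9 measured alpha subunits and -0.12 over the 4 measured beta subunits. It was 0.0036 for the alpha subunits with the median over probe sets and -0.054 for the beta subunits without shared probe sets.

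The laminin-binding alpha subunits differed little. Itga6, the main laminin receptor subunit of epithelium, read 901.8 in the wild type pool and 959.5 in the TAZ-deficient one (1.06-fold higher), with 423.5 and 425.7 at its second probe set. Itga3, which pairs with Itgb1 to bind epithelial laminins, read 153.5 and 160.7, and its second probe set read 58.5 and 66.6. All 4 probe sets had ratios above 0, the largest 1.14-fold.

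Of the collagen-binding subunits, Itga2 was higher in TAZ-deficient lung but dim. Itga2 read 15.8 in wild type, just above the floor, and 25.7 in TAZ-deficient lung at its only probe set, 1450501_at (1.63-fold higher). With 16 units added to each signal in place of the floor, its log2 ratio was 0.39 in place of 0.70, below those of Lamc3 (0.67) and Frem2 (0.52) on that scale. Itga1 read 108.5 and 113.2 at one probe set and 28.1 and 21.4 (1.31-fold lower) at the other, so its direction depended on the probe set.

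Subunits of RGD receptors were close to equality at their brightest probe sets. Itga8, the receptor subunit for nephronectin in lung mesenchyme, read 575.1 and 572.6, and 171.2 and 169.1 at its second probe set. Itga5, the fibronectin receptor subunit, read 87.2 and 79.6 (1.10-fold lower), with 39.4 and 38.6 at the second. Itgav, which joins several beta subunits, read 432.6 and 461.8 (1.07-fold higher) and 79.9 and 80.1, and a dim probe set read 21.1 and 13.0 (at least 1.39-fold lower). The nephronectin receptor genes differed by less than the spread between the probe sets of Npnt itself.

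The alpha4 and alpha9 subunits, which bind VCAM1, fibronectin variants and tenascin, were within 1.2-fold. Itga4 read 51.1 and 56.2 (1.10-fold higher), and its other 2 probe sets above the floor on either array also had ratios above 0. Itga9 read 143.5 and 129.9 (1.10-fold lower), then 64.7 and 65.1, and 23.5 and 15.9 (1.48-fold lower) at the dimmest. Only that dimmest probe set was beyond 1.2-fold.

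The beta subunits had ratios below 0 apart from Itgb8. Itgb1, the partner of most alpha subunits, read 1063.3 and 994.5 (1.07-fold lower) and 560.8 and 547.5, while a cross-hybridising probe set read 134.6 and 161.0, higher by just under 1.2-fold. Itgb5, a partner of Itgav, was lower at all 4 probe sets, with 306.7 and 279.6 at the brightest and log2 ratios from -0.19 to -0.07. These values were small but on one side of equality.

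Itgb6, the epithelial partner of Itgav that activates latent TGF-beta, read 25.1 in the wild type pool and 20.3 in the TAZ-deficient one (1.24-fold lower). Its second probe set read 17.3 and 11.5 (at least 1.14-fold lower). Itgb8, which also activates latent TGF-beta with Itgav, read 24.1 and 25.2. All of these signals were near the floor. Itgb6 was within 1.2-fold after loess scaling (log2 ratio -0.25), with the median over probe sets (-0.25), without shared probe sets (-0.19) and with 16 units added to each signal (-0.18).

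**Figure D2:**
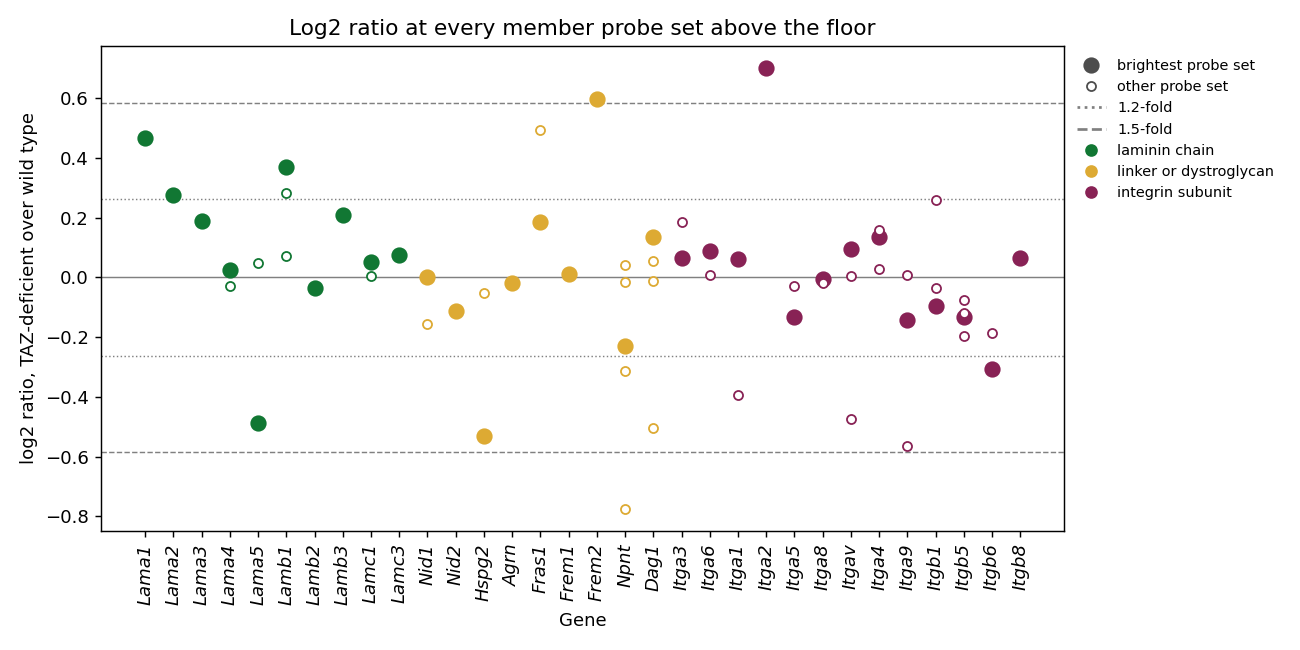
Log2 ratio, TAZ-deficient against wild type, (vertical axis) at the 64 member probe sets above the floor on either array, by gene; large filled points are the brightest probe set of each gene and small open points the others, with dotted lines at 1.2-fold and dashed lines at 1.5-fold. Of the 20 genes with several probe sets drawn, 6 stay above 0 at all of them (among them Lamb1), 5 below 0 (among them Itgb5) and 9 have both signs. Npnt, Dag1, Itga9, Itgav and Lama5 spread over more than 0.5 log2 units.

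The probe sets of a gene give the only error these arrays hold, and it leaves out all variation between embryos, pools and arrays. Of the 20 measured members with several probe sets above the floor, 6 had ratios above 0 at all of them, 5 below 0 at all and 9 both signs. Where the 2 brightest were above the floor on both arrays, they had the same sign in 11 of 18 members (61.1%), against 58.1% of 5201 genes. The SD of a single ratio, estimated from the difference between these 2, was 0.20 log2 units over the members and 0.19 over all genes. It was 0.12 for genes with both above 106.3 and 0.23 for the rest. The ratios of all 8 members at least 1.2-fold different exceeded 0.23 in size, which ratios at that threshold do by definition. The second probe sets of Lama5 (0.05) and Hspg2 (-0.05) did not. Of the 3 members at least 1.2-fold different that had a second such probe set, only Lamb1 was also 1.2-fold different there in the same direction.

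Counted over probe sets, the members resembled the array as a whole. Of the 64 above the floor, 9 were at least 1.2-fold lower, where 11.7% of all such probe sets were, and 7 at least 1.2-fold higher, where 9.2% were. At 1.5-fold 1 was lower and 2 were higher, with 1.81% and 1.6% over the array. The median log2 ratio was 0.0039 over these 64.

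Dim genes scattered more than bright ones. The central 90% of log2 ratios ran from -0.49 to 0.45 for the 5110 measured genes with a mean signal up to 106.3, and from -0.26 to 0.23 for the 6922 brighter genes. Lama1, Hspg2 and Itga2 lay outside the first range, and Lama5, Lamb1 and Frem2 outside the second, 6 of 32 members (18.8%). Lama5 and Frem2 were barely above the brightness that divides the classes, and Lama5 would lie inside the wider range of the dimmer genes.

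**Figure D3:**
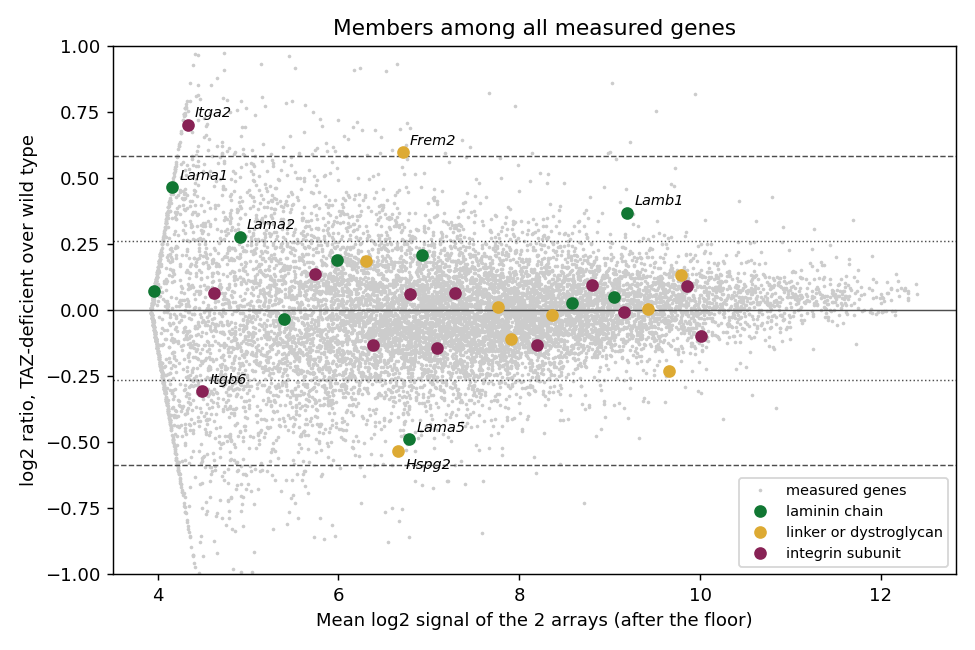
Log2 ratio, TAZ-deficient against wild type, against the mean log2 signal of the 2 arrays for all measured genes (grey) and the members (coloured by class), with the 8 members at least 1.2-fold different named; the 23 genes beyond 1 log2 unit lie off the axis. Lamb1 stands above the cloud at high signal, Lama5, Hspg2 and Frem2 at its edges at middle signal, and Lama1, Lama2, Itga2 and Itgb6 in the wide part at low signal.

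Related genes of the basement membrane were also mostly within 1.2-fold. Of all measured genes 81.4% were, with 10.6% at least 1.2-fold lower and 8.01% higher. Of 10 basement membrane collagens 9 were measured, 0 were 1.5-fold different, and 2 were at least 1.2-fold higher and 1 lower. Col4a1, a chain of the ubiquitous collagen IV network, read 1693.1 in the wild type pool and 1734.6 in the TAZ-deficient one, and Col18a1, the source of endostatin, 925.7 and 988.7. The 2 higher ones were Col15a1 (88.6 and 113.2) and Col7a1 (16.5 and 23.8), and the lower one was Col4a3, whose TAZ-deficient signal was below the floor. Of 12 other measured basement membrane and assembly genes, 1 was at least 1.2-fold lower and 1 higher. The brightest of them, Sparc and Fbln1, read 2854.9 and 2958.5, and 1090.5 and 1024.5. The second probe set of Fbln1 read 404.7 and 315.0, a log2 ratio of -0.36.

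Other integrin ligands included 2 of 10 measured genes at least 1.2-fold lower (10.6% of all were) and 0 higher (8.01% of all). Those were the matricellular genes Ccn1 (139.8 and 100.0) and Ccn2 (215.5 and 159.1), which are known targets of YAP and TAZ as well as integrin ligands. Fn1, fibronectin, read 437.8 and 421.1, Vcam1 609.9 and 666.5, and Thbs1 562.4 and 619.7. A second, dim probe set of Fn1 read 26.2 and 18.9. In the focal adhesion and adaptor list 24 of 26 measured genes (92.3%) were within 1.2-fold at their brightest probe sets, against 81.4% of all. Its exceptions were the actin crosslinker Flna (730.8 and 884.0, 1.21-fold higher) and the dim Lims2 (20.3 and 3.3, at least 1.34-fold lower). Second probe sets went beyond 1.2-fold both ways, among them Parva (449.9 and 309.4), Vcl (112.3 and 91.5), Tns1 (93.7 and 131.6) and Kank2 (50.8 and 67.4). Ratios were above 0 for 14 genes and below 0 for 12. With the median over probe sets, 11 were above and 15 below. Tns3 and Cd81, the brightest of the list, read 1367.9 and 1361.7, and 1965.8 and 1921.1.

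Genes that work with dystroglycan or in hemidesmosomes were 1.2-fold lower in 4 of 12 measured cases (33.3%) and higher in 0. Over all measured genes, 10.6% were lower and 8.01% higher at that size. Sgce, a sarcoglycan, read 365.3 and 264.4 (1.38-fold lower). Pomgnt1 (213.9 and 171.8) and Pomt1 (57.7 and 45.5), which glycosylate dystroglycan, and Dst (56.5 and 40.8), a cytoskeletal linker, were the other three. Sgce, Pomgnt1 and Pomt1 each rested on 1 probe set above the floor. The second probe set of Dst had the opposite sign, and no gene of the list was 1.5-fold different. Of the family genes outside the members, Itga2b, the platelet subunit, read 61.1 and 75.7 (1.24-fold higher). The leukocyte subunits Itgal (23.4 and 15.1, at least 1.54-fold lower) and Itgb2 (29.5 and 20.3, 1.45-fold lower) were dim.

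Markers of lung cell types give the cell background of these values. For comparison, 81.4% of all measured genes were within 1.2-fold, 10.6% at least 1.2-fold lower and 8.01% higher. Epithelial markers were within 1.2-fold in 6 of 6 genes, with a summed signal of 8179.9 in the wild type pool and 8284.7 in the TAZ-deficient one. The 6 endothelial markers (2230.7 and 2102.6), the 6 lung mesenchyme markers (9700.7 and 9752.8) and 4 measured mesothelial markers (782.7 and 778.5, Msln below the floor) were also within 1.2-fold. This holds for the brightest probe sets. The second probe set of Epcam was higher (72.6 and 108.0) and that of Foxf1 lower (248.7 and 203.7), both beyond 1.2-fold. Sums lean on bright genes such as Sftpc (4142.5 and 4121.5) and, in smooth muscle, Acta2 (2749.2 and 2701.5). Smooth muscle markers were below wild type in 6 of 6 genes, 4 of them by at least 1.2-fold, with sums of 3959.6 and 3658.7, Cnn1 being lower by just over 1.5-fold. Heart muscle markers were at least 1.2-fold lower in 4 of 4 measured genes, with sums of 691.0 and 516.8 and with Myl7, Myh7 and Tnnt2 at least 1.5-fold lower, while Myh6 and Nppa were below the floor on both arrays. Of 6 leukocyte markers 2 were at least 1.2-fold lower (1102.1 and 1015.6), as were 2 of 3 nerve markers (117.3 and 93.6) and 1 of 2 skeletal muscle markers (39.0 and 22.3). The skeletal muscle marker was Ckm, a bound whose second probe set went the other way (10.1 and 19.6). The nerve markers were Sox10, also a bound, and Stmn2, whose second probe set went the other way too (23.6 and 30.5). Csf1r, a leukocyte marker near equality at its brightest probe set, was higher at its second (73.2 and 97.5). The part of muscle, leukocyte and nerve cells in the lower signals of Hspg2, Lama5, Itgb2 and Itgal was not tested.

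**Figure D4:**
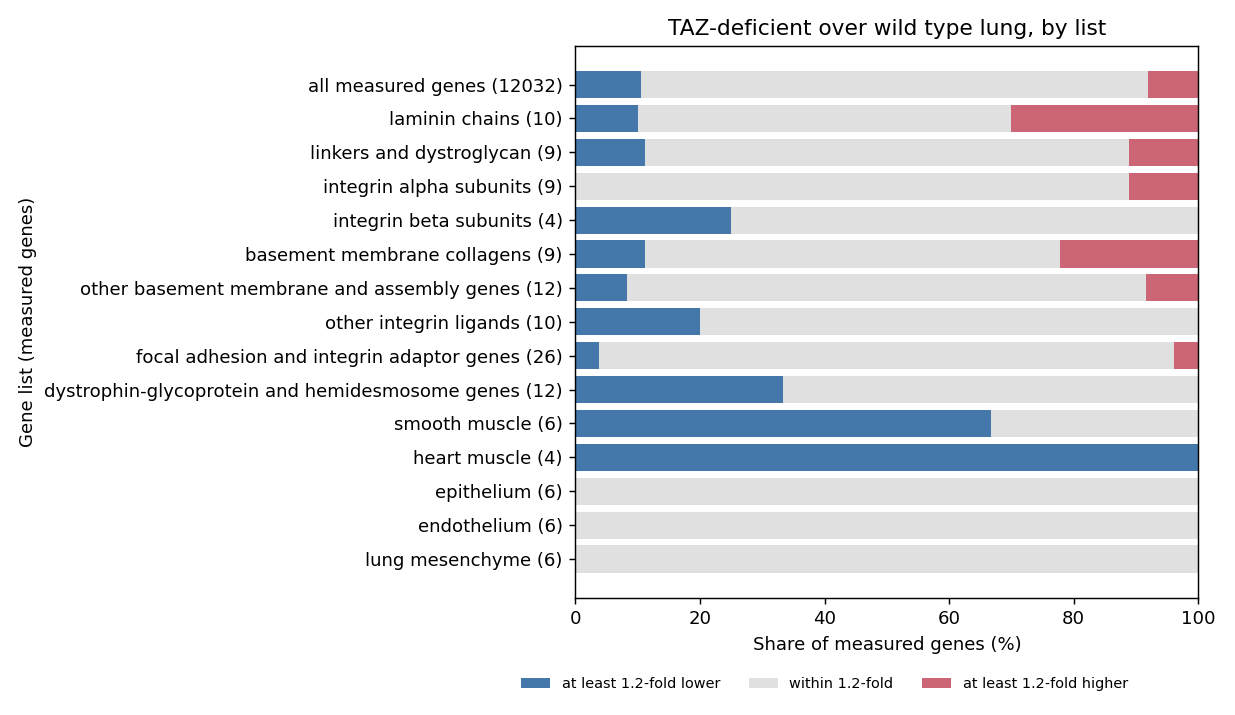
Share of measured genes (horizontal axis, percent) at least 1.2-fold lower (blue), within 1.2-fold (grey) and at least 1.2-fold higher (red) in TAZ-deficient over wild type lung, for all genes and a choice of lists, with the number of measured genes in brackets. The leukocyte, nerve, skeletal muscle and mesothelial markers and the family genes outside the members are not drawn. Laminin chains hold 3 of 10 higher genes, against 8.01% of all measured genes, with Lama1 (by a bound) and Lama2 among them dim. Smooth and heart muscle lists hold mostly lower ones, and epithelial, endothelial and mesenchymal lists none beyond 1.2-fold at the brightest probe sets.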

How the data were processed

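Whole-lung total RNA from wild type and TAZ-deficient embryos was pooled (4 RNA samples per group) and hybridised to 1 array per group, per the labels. The deposited values are linear intensity signals per probe set, made with GCOS and MAS5 per the submitters' processing notes, with no version given. Each array's mean after trimming 2% at either end was 100.001, so the authors scaled arrays as a whole. No detection calls, aligned build or probe positions were used. The number of arrays limits the precision.

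The platform annotation named 1 gene for 34945 probe sets, several for 932 and none listed for 9160, and 64 were controls. Symbols were updated through Entrez identifiers to GRCm38.p6 RefSeq for 34741. Log2 ratios used a floor of 15.2. Differences of 1.5-fold and 1.2-fold were counted. Every member was named. From each other list, genes past 1.5-fold were named, and the 2 brightest where there were none, except that marker lists without such genes are given as sums and counts. Further list genes were chosen after their values were seen. Members and lists were chosen with earlier results of these data known. The counting was tested on simulated data, with changes larger than 1.5-fold planted in bright genes only. It therefore does not bear on the 1.2-fold counts or on genes near the floor. Python 3.11.15, pandas 2.3.3, NumPy 2.4.6 and statsmodels 0.14.6 were used, with 8 alternatives: floors at the 25th and 75th percentile, quantile, loess (span 0.3) and median scaling, the median over probe sets, no probe sets with shared suffixes, and a pseudocount of 16. Loess was fitted to the log2 ratio against mean log2 signal.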

Additional observations from a re-analysis of the deposited data

How the results depend on the processing

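No replicate exists, so a single value was called moved when it shifted by more than 0.19 log2 units, the SD between probe sets of a gene. The median log2 ratio of the members stayed above 0 under all 8 alternatives, from 0.0071 (median over probe sets) to 0.069 (median scaling), and 0 members were 1.5-fold lower under any. With the floor at the 75th percentile, which left 21 members, 0 were at least 1.5-fold higher, 1 was at least 1.2-fold lower and 2 were at least 1.2-fold higher. Frem2, Hspg2 and Lama5 were counted there at lower bounds, since one signal of each was below that floor. With the median over probe sets 1 was at least 1.2-fold lower. With the pseudocount of 16, 1 was at least 1.5-fold higher, Lamc3 in place of Frem2 and Itga2. Of 242 single values under alternatives, 10 moved and 0 of the called members changed sign. Lama4, Lamb2, Nid1, Itga1 and Itga8, all within 1.2-fold, had the other sign under at least 1 alternative. A floor of 4.3 units, the 25th percentile, gave Lamc3 a log2 ratio of 1.90 in place of 0.07, its wild type signal being below either floor. No paired analysis was possible because each group has 1 array.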
